A study of Oryza sativa with 216 samples.

Results

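The 210 recombinant inbred lines (RILs) from the cross of Zhenshan 97 with Minghui 63, both indica rice, were divided into 2 groups selected on their level of OsAPY3, an apyrase gene, in the flag leaf. The cut was the midpoint between the mean of the 3 Zhenshan 97 arrays and the mean of the 3 Minghui 63 arrays for the probe set of OsAPY3. Of the 210 lines, 86 (40.95%) lay below the midpoint and the others (59.05%) above it, and the 6 parental arrays made up the rest of the series. The lines had been made by single-seed descent and were untreated. Flag leaves were taken in the morning at heading. RNA of 2 plantings was mixed for each line and hybridised to 1 Affymetrix rice array, so a line has no replicate of its own and lines are the units of every comparison between groups of lines. Each parent had 3 arrays, from plants grown as replicates. Levels are given as log2 values from RMA, a method that combines the probes of a set into 1 value, and a difference of 1 between them is a doubling of the signal.

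Apyrases remove phosphate groups from nucleoside tri- and diphosphates in the Golgi or outside the cell. In plants they are known for keeping extracellular ATP low and for a part in growth and stress responses. A RIL population mixes the genomes of its parents line by line. A gene whose level depends mostly on a variant next to it can split the lines into separate groups near the levels of the parents. A gene under several influences, which may include a nearby variant of smaller effect, can give a continuous spread. Whether the level of OsAPY3 depends on a variant next to it was not tested. Genes that lie close together on a chromosome are inherited together in most lines of such a population.

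OsAPY3 (LOC4351367, on chromosome 12 of the reference annotation) had 1 probe set. Its level was 6.67, 7.25 and 8.27 on the Zhenshan 97 arrays (7.39 ± 0.81, SD, n = 3) and 11.52, 10.85 and 11.29 on the Minghui 63 arrays (11.22 ± 0.34, SD, n = 3). The parental arrays did not overlap, and their means differed by 3.83. The midpoint lay at 9.31. Lines above it ranged from 9.32 to 12.22 with a median of 10.05 (10.12 ± 0.56, SD), and lines below it ranged from 6.34 to 9.30 with a median of 8.69 (8.50 ± 0.67, SD). These values chose the lines and are given as a description.

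The lines did not fall into a Minghui 63 type and a Zhenshan 97 type. The level ran from 6.34 to 12.22 without a break at the midpoint, where the 3 lines next below were at 9.273, 9.281 and 9.299 and the 3 lines next above at 9.315, 9.328 and 9.332. There were 40 lines within 0.25 of the midpoint and 81 within 0.5 of it. Most lines (79.05%) were between the highest Zhenshan 97 array and the lowest Minghui 63 array, while 3 lines exceeded every Minghui 63 array and 2 were under every Zhenshan 97 array. A single normal distribution had the lower Bayesian information criterion (606.7, against 615.6 for a mixture of 2 normals). The groups are therefore called lines above and lines below the midpoint.

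**Figure D1:**
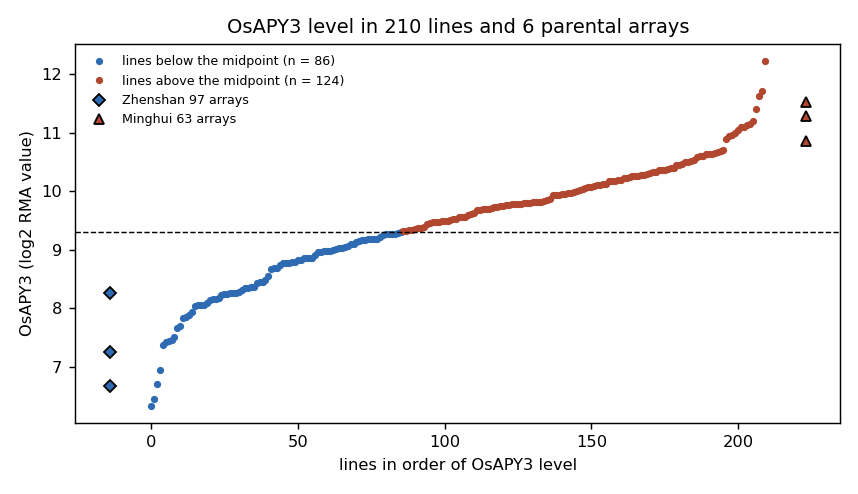
OsAPY3 level (log2 RMA value) of the 210 lines in ascending order, with the 3 arrays of each parent at the sides and the parental midpoint of 9.31 as a dashed line. The points rise without a gap through the midpoint, and 79.05% of the lines lie between the arrays of the parents.

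The arrays of both groups were alike in their medians and control probe sets, and differed somewhat in some principal components. Array medians ranged from 5.152 to 5.291 in lines above and from 5.165 to 5.321 in lines below. The 3′ minus 5′ difference of the rice control probe sets, a sign of RNA integrity, differed between the groups by -0.00811 for gapdh, 0.0454 for ef1a and 0.0173 for actin, with two-sided permutation p of 0.807, 0.111 and 0.508. Of the first 5 principal components of the lines, the second, with 4.584% of the variance, differed most between the groups, by 0.318 of its SD. Leaf genes were high, with the median of the photosynthesis and chlorophyll list at percentile 98.9 of all probe sets, and the median of 6 seed storage genes was at percentile 22.1, although GLUA-2 of that list was at 10.39 in both groups. In 1 line below the midpoint, line 98, the seed storage list had a mean of 7.55, against 5.19 in the next line. Its removal gave 38 called probe sets in place of the 31 described next, of which 30 were shared.

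Between lines above and below the midpoint, 31 of 57257 probe sets (0.0541%) had an adjusted p under 0.05 (limma, Benjamini-Hochberg adjustment over all probe sets). Of these, 18 were higher in lines above the midpoint (0.0314% of those tested) and 13 were lower (0.0227%). They included a lipid transfer protein gene, the protein kinase gene OsWNK8, the RNA-binding protein gene OsDRB1 and the auxin response gene IAA12, all higher in lines above. The differences were small, with a median size of 0.22 against 0.0272 over all probe sets, 5 of at least 0.5 and 15 under 0.2. An unadjusted p under 0.05 was found for 7255 probe sets (12.7%). The count depended on how the lines were cut. With the 81 lines nearest the midpoint left out it rose to 3735, and it was 550 with the midpoint taken without Zhenshan 97 replicate 3, which moved it to 9.09, and 82 without Minghui 63 replicate 1. With the first 5 principal components as covariates it was 19. With the OsAPY3 level itself fitted as a continuous variable in place of the groups, chosen after the data were seen, 7218 probe sets (12.6%) passed.

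Of the 31, 16 probe sets of 15 genes were paired with 1 gene symbol and could be placed in the order of genes on the chromosomes, and 8 of these 16 lay on chromosome 12, where OsAPY3 is. That is 0.705% of the 1135 probe sets placed on chromosome 12, against 0.038% of 21066 on the other chromosomes. The farthest of the 8 from OsAPY3 was LOC9269069, and the 8 made up 5.88% of the probe sets at its distance or nearer. Farther away on the chromosome 0 of 999 passed by limma, with 110 (11%) at an unadjusted p under 0.05, compared with 39 (28.7%) at the distance of LOC9269069 or nearer. That distance was set after the values were seen, so no test was made on it.

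**Figure D2:**
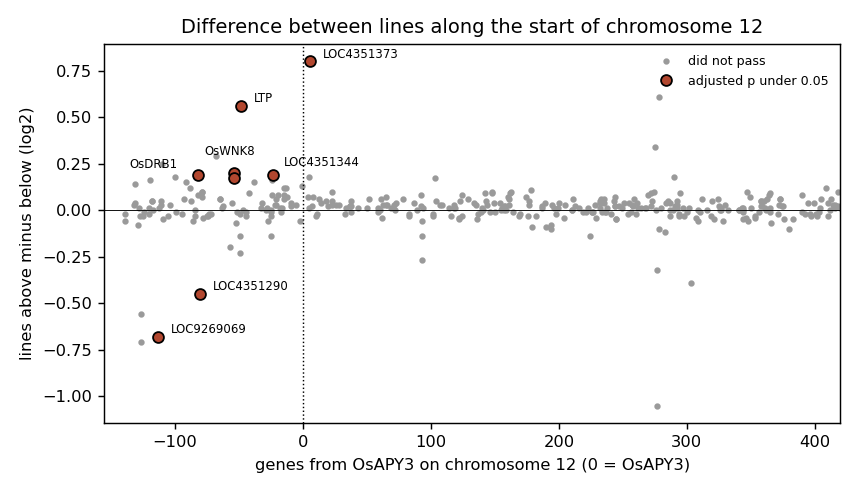
Difference between lines above and below the OsAPY3 midpoint (log2) for probe sets near the start of chromosome 12, against their distance in genes from OsAPY3 at 0. Large points passed the threshold, and all 8 of them lie between LOC9269069 and LOC4351373, with differences from -0.68 to 0.80.

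The largest increase among the probe sets that passed was that of LOC4351373, 6 genes after OsAPY3 in gene order. Its level ranged from 4.78 to 7.27 in lines above (median 6.73) and from 4.58 to 7.04 in lines below (median 5.46). The ranges of the groups overlapped from 4.78 to 7.04, and the median of each group lay within the range of the other. The difference was 0.80 ± 0.0935 (SE, adjusted p = 4.96e-11, limma). Zhenshan 97 was at 5.21, 5.41 and 5.39 and Minghui 63 at 6.72, 7.15 and 7.16, a difference of 1.67 ± 0.17 (SE, adjusted p = 0.000894, limma, 3 arrays each).

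LOC4351373 split the lines cleanly, as OsAPY3 did not. At its own parental midpoint of 6.17 there was an empty interval of 0.40, with 49.5% of the lines from 4.58 to 5.90 (5.36 ± 0.26, SD) and 50.5% from 6.29 to 7.27 (6.83 ± 0.22, SD). A mixture of 2 normals had a Bayesian information criterion of 310.5, against 500.3 for 1. Each of the 6 parental arrays lay within the range of the lines on its own side. Of the lines on the Minghui 63 side of LOC4351373, 90 (84.9%) were above the OsAPY3 midpoint, and of the lines on the Zhenshan 97 side 70 (67.3%) were below it, so 160 of 210 lines (76.2%) were on the same parental side for both genes and 50 were not.

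As a description, OsAPY3 was at 10.01 ± 0.72 (SD, range 8.35 to 12.22) in the lines with high LOC4351373 and at 8.89 ± 0.93 (SD, range 6.34 to 11.19) in those with low LOC4351373. The means differed by 1.12, less than the 3.83 between the parents, and the sides of LOC4351373 accounted for 31.4% of the variance of OsAPY3 over the lines. All of the 20 lines with the lowest OsAPY3 were on the Zhenshan 97 side of LOC4351373, and 19 of the 20 lines with the highest were on the Minghui 63 side. The middle of the OsAPY3 range held lines of both sides.

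**Figure D3:**
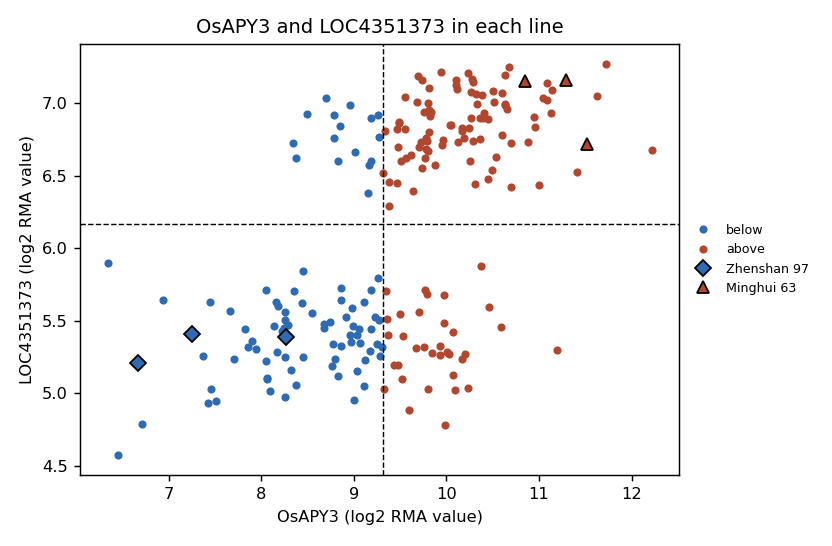
Level of LOC4351373 against that of OsAPY3 (log2 RMA values) in each of the 210 lines and 6 parental arrays, with both parental midpoints as dashed lines. LOC4351373 falls into 2 bands with no line between 5.90 and 6.29, while OsAPY3 spreads widely within each band, so that 50 lines lie on opposite parental sides for the 2 genes.

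Lipid transfer proteins carry lipids between membranes or to the leaf surface. The probe set of LTP (LOC4351318), 48 genes before OsAPY3, ranged from 10.73 to 13.29 in lines above (median 12.67) and from 11.01 to 13.44 in lines below (median 11.89). It was higher in lines above by 0.56 ± 0.0749 (SE, adjusted p = 3.14e-08, limma), with overlapping groups. It was also higher in Minghui 63 (13.19, 12.94 and 13.27) than in Zhenshan 97 (12.32, 11.88 and 12.10). This probe set is of a kind (_x_at) that can match more than 1 transcript, so its signal may not be of LTP alone.

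The kinase gene OsWNK8 (LOC4351311) was read by 2 probe sets, 54 genes before OsAPY3, and WNK kinases are known in Arabidopsis for roles in flowering time and in the clock. The first ranged from 8.46 to 9.42 in lines above (median 9.08) and from 8.43 to 9.36 in lines below (median 8.81), and it was higher in lines above by 0.20 ± 0.031 (SE, adjusted p = 1.07e-05, limma). The other, of the _x_at kind that can match more than 1 transcript, was higher by 0.17 ± 0.0269 (SE, adjusted p = 1.38e-05, limma). In the parents neither passed, with differences of 0.63 (adjusted p = 0.192, limma) and 0.44 (adjusted p = 0.362, limma). OsDRB1 (LOC4351288), 82 genes before OsAPY3, belongs to the double-stranded RNA-binding proteins, which in Arabidopsis assist the processing of microRNAs. It was higher in lines above by 0.19 ± 0.0398 (SE, adjusted p = 0.0152, limma) with levels of 7.46 to 8.97 above and 7.32 to 8.97 below. It did not pass with Minghui 63 replicate 2 left out of the midpoint (adjusted p = 0.0832, limma). These values are from a probe set of the _x_at kind, and another probe set of OsDRB1 differed by 0.08 and did not pass.

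The 2 genes of this stretch that were lower in lines above were LOC9269069 and LOC4351290, for which the sources used here give no function. LOC9269069, the farthest from OsAPY3, ranged from 9.25 to 11.24 in lines above (median 9.91) and from 9.09 to 11.47 in lines below (median 10.90). It was lower above by 0.68 on the log2 scale (difference -0.68 ± 0.0779, SE, adjusted p = 3.16e-11, limma), and in the parents by -1.33 ± 0.17 (SE, adjusted p = 0.00288, limma). LOC4351290, 80 genes before OsAPY3, had medians of 6.57 above and 7.32 below, a difference of -0.45 ± 0.0753 (SE, adjusted p = 6.7e-05, limma). Its parental arrays were at 8.00, 7.06 and 7.39 in Zhenshan 97 and at 6.47, 6.39 and 6.48 in Minghui 63. Both genes were thus high in the parent in which OsAPY3 was low, and both split the lines, with a lower Bayesian information criterion for a mixture of 2 normals than for 1.

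Within 25 genes on either side of OsAPY3, 40 probe sets of 28 genes were measured and 2 passed, LOC4351373 and LOC4351344. LOC4351344, 23 genes before OsAPY3, ranged from 6.07 to 7.18 in lines above and from 5.40 to 7.16 in lines below and was higher above by 0.19 ± 0.0353 (SE, adjusted p = 0.000517, limma). The median difference of the 40 was 0.0437, against -0.00723 over all probe sets, and 33 of them were higher in lines above, where 42.9% of all probe sets were. The nearest measured genes were not among those that passed. LOC4351365, next to OsAPY3, differed by 0.13 (adjusted p = 0.2, limma) and LOC4351364, 2 genes before OsAPY3, by -0.06 (adjusted p = 0.388, limma). LOC4351371, 4 genes after OsAPY3, differed by 0.07 (adjusted p = 0.269, limma). Between the parents 2 of the 40 passed (5%, against 5.31% of all probe sets), LOC4351373 and 1 of the 2 probe sets of LOC4351343 (1.27 ± 0.24, SE, adjusted p = 0.0221, limma), which differed by 0.16 between the lines (adjusted p = 0.21, limma).

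A further 8 placed probe sets lay on other chromosomes, 6 of them higher in lines above. IAA12, on chromosome 3, encodes a protein of the Aux/IAA family, the repressors that auxin removes. It ranged from 4.35 to 6.71 in lines above (median 5.21) and from 4.16 to 6.03 in lines below (median 4.99), a difference of 0.29 ± 0.0569 (SE, adjusted p = 0.00467, limma). These levels were close to the array medians, and IAA12 was not among the probe sets kept when dim ones were left out. LOC4340389, on chromosome 6, annotated as a nucleolar GTP-binding protein (LOC_Os06g09570), ranged from 8.96 to 11.42 above and from 8.53 to 11.44 below and differed by 0.33 ± 0.0763 (SE, adjusted p = 0.0407, limma). Such proteins act in the assembly of ribosomes. The groups of lines overlapped over almost their whole ranges in both genes. LOC4340389 did not pass after quantile normalization (adjusted p = 0.0759, limma), with 5 principal components as covariates (adjusted p = 0.0685, limma) or with Minghui 63 replicate 2 left out of the midpoint (adjusted p = 0.109, limma), and IAA12 did not pass with the components (adjusted p = 0.0539, limma).

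LOC4337686 on chromosome 5 and LOC4331418 on chromosome 3 differed by 0.33 ± 0.0607 (SE, adjusted p = 0.000517, limma) and 0.29 ± 0.0495 (SE, adjusted p = 0.000217, limma), and they passed under each of the 14 settings other than those chosen after seeing the data. LOC4347074 on chromosome 9 was higher by 0.11 and LOC4349620 on chromosome 11 by 0.14. The starts of rice chromosomes 11 and 12 are known as a recent duplication with near-identical gene pairs. The sequences of the probes were not used here, so whether the LOC4349620 probe set also reads a gene of chromosome 12 was not tested. Lower in lines above were LOC4342703 on chromosome 7, with medians of 8.11 above and 8.48 below (difference -0.37 ± 0.0831, SE, adjusted p = 0.0325, limma), and LOC4349023 on chromosome 10, by 0.10 on the log2 scale (difference -0.10). LOC4342703 did not pass in 7 of 16 other settings, among them the midpoint without Zhenshan 97 replicate 1 (adjusted p = 0.107, limma) or Minghui 63 replicate 2 (adjusted p = 0.11, limma). LOC4349023 did not pass in 9 of 15, among them the midpoint without Zhenshan 97 replicate 1 (adjusted p = 0.0746, limma), Zhenshan 97 replicate 2 (adjusted p = 0.0918, limma) or Minghui 63 replicate 2 (adjusted p = 0.116, limma). LOC4347074 and LOC4349620 missed the threshold in 3 and 2 of 16.

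The other 15 called probe sets had no gene symbol, and those described here were picked with their values known. The largest difference of the 31 was among them, for a probe set that ranged from 3.56 to 8.04 in lines above (median 4.87) and from 3.75 to 8.18 in lines below (median 6.42), a difference of -0.99 ± 0.15 (SE, adjusted p = 5.28e-06, limma). Its side of its own parental midpoint was that of LOC4351373 in 90% of lines. The one annotated as a cytochrome P450 (LOC_Os10g05490), a family of oxidases of hormone and secondary metabolism, was higher in lines above by 0.40 ± 0.0856 (SE, adjusted p = 0.0181, limma), with ranges of 5.80 to 8.47 above and 5.36 to 8.60 below. It did not pass with 5 principal components as covariates (adjusted p = 0.274, limma) or by a rank-sum test (adjusted p = 0.0583). Another unnamed one was higher by 0.56 ± 0.12 (SE, adjusted p = 0.0139, limma).

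The parental arrays had entered the split only through OsAPY3, so the other probe sets of the parents were compared separately. Between Minghui 63 and Zhenshan 97, 3043 of 57258 probe sets passed (5.31%, limma), 1637 (2.86%) higher and 1406 (2.46%) lower in Minghui 63. That count was 1545 without Minghui 63 replicate 1, 1949 without Zhenshan 97 replicate 1 and 1849 without Zhenshan 97 replicate 3. Of the 31 probe sets called between the lines, 27 differed in the same direction between the parents (87.1%, against 51.3% of all probe sets), 13 passed there too (41.9%), all 13 in the same direction, and 21 had parental arrays that did not overlap (67.7%, against 22.8% of all). All 8 probe sets on chromosome 12 had the direction of the parents and 4 of them passed. The parental difference was the larger for 27 of the 31.

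**Figure D4:**
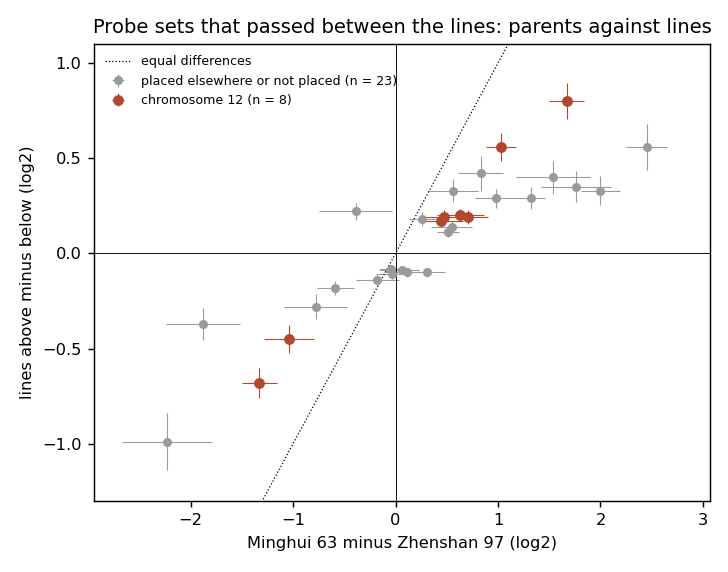
Difference between lines above and below the OsAPY3 midpoint against the difference between the parents (log2, bars are SE) for the 31 probe sets that passed between the lines. The direction is the same in both for 27 probe sets, and the parental difference is the larger in size for 27. The dotted line marks equal differences.

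The difference between the contrast of the lines and that of the parents was tested over the arrays of the lines and the parents, and 4324 of 57257 probe sets (7.55%) passed by limma. Of the 31 called probe sets 5 passed, IAA12, LOC4340389, LOC4342703, LOC4349023 and 1 unnamed probe set, none of them placed on chromosome 12. In 4 of the 5 the lines differed less than the parents, as in LOC4340389, which differed by 0.33 between the lines and by 2.0 between the parents (adjusted p = 0.00799 for the difference, limma). Both groups of lines mix the genomes of the parents, so a smaller difference between the lines was likely in advance. LOC4349023 had the opposite direction in the parents. This fit used 1 spread for lines and parents together, so its SE was large for probe sets that split the lines. For LOC4351373 the difference of the contrasts was -0.87 ± 0.55 (SE, adjusted p = 0.381, limma). Its SE was 0.0935 between the lines and 0.17 between the parents when fitted apart. A miss in this test therefore does not show that lines and parents differed equally.

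Over 2189 probe sets whose parents differed past the threshold by at least 1, each cut at its own parental midpoint, a median of 52.4% of lines were on the same parental side as for OsAPY3 (quartiles 49 and 56.7). The 3 highest shares were those of LOC4351373 (76.2%), LOC4351290 (74.3%) and LOC9269069 (71.4%), all near OsAPY3, followed by the unplaced probe set with the largest difference of the 31 (71%) and by LTP (66.7%). LOC4340389 of chromosome 6 came next with 66.2%. The probe sets of the lines share their arrays, and the shares are a description.

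As an alternative chosen after the data were seen, the comparison of lines above and below was fitted with the level of LOC4351373 as a covariate. All 7 remaining probe sets on chromosome 12 then missed the threshold. LTP fell from 0.56 to 0.11 ± 0.0617 (SE, adjusted p = 0.689, limma), and LOC4351290 moved from -0.45 to -0.01 (adjusted p = 0.972, limma). LOC9269069 and LOC4351344 kept part of their differences, from -0.68 to -0.25 ± 0.0695 (SE, adjusted p = 0.138, limma) and from 0.19 to 0.12 ± 0.0399 (SE, adjusted p = 0.323, limma). The unplaced probe set with the largest difference of the 31 moved from -0.99 to -0.07 (adjusted p = 0.917, limma). In contrast, the genes of other chromosomes that were higher in lines above kept or raised their differences, as IAA12 from 0.29 to 0.36 ± 0.0656 (SE, adjusted p = 0.000963, limma) and LOC4331418 from 0.29 to 0.38 ± 0.0564 (SE, adjusted p = 6.03e-06, limma). The genes of other chromosomes that were lower, LOC4342703 and LOC4349023, stayed at -0.38 (adjusted p = 0.083, limma) and -0.10 (adjusted p = 0.194, limma) but missed the threshold.

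**Figure D5:**
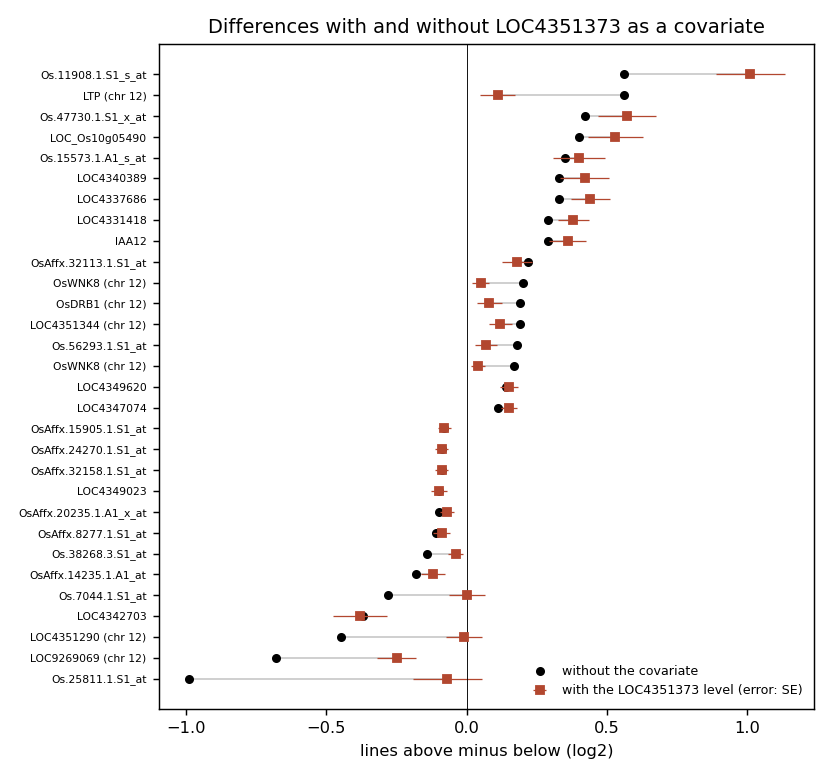
Differences between lines above and below the midpoint (log2) for 30 called probe sets without (circles) and with (squares, bars are SE) the level of LOC4351373 as a covariate. The 7 probe sets on chromosome 12 move toward 0, whereas IAA12, LOC4331418 and LOC4337686 do not.

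With that covariate 55 of 57256 probe sets passed (0.0961%), 53 (0.0926%) higher and 2 (0.00349%) lower in lines above, and 10 of them were shared with the 31. The 2 lower ones were an unnamed probe set (-0.74 ± 0.156, SE, adjusted p = 0.00996, limma) and OsMADS1, a floral organ identity gene (-0.59 ± 0.13, SE, adjusted p = 0.0195, limma). Among the higher ones were OsSUS2, a sucrose synthase that cleaves sucrose (0.23, adjusted p = 0.0376, limma), OsMAPK6, a mitogen-activated protein kinase (0.18, adjusted p = 0.0234, limma), and OsGRF3, of the growth-regulating factors (0.16, adjusted p = 0.0381, limma). The genes named here were picked after their values were seen, and they did not pass without the covariate, where OsSUS2 differed by 0.15 and OsMADS1 by -0.29.

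Of the measured genes of 10 lists 0 passed by limma, with 22 at an unadjusted p under 0.05 (15.2%, against 12.7% of all probe sets). The median difference of a list ranged from -0.03 for 6 seed storage genes to 0.08 for 3 floral organ MADS genes, against -0.00723 over all probe sets. Of the apyrases other than OsAPY3 1 was measured, OsAPY2, with a mean of 7.85 in lines above and 7.80 in lines below (difference 0.05, adjusted p = 0.539, limma) and no call between the parents (-0.23 ± 0.18, SE, adjusted p = 0.621, limma). The 10 genes of purine and pyrimidine metabolism, which use and recycle nucleotides, had a median of 0.02, with the largest difference, 0.17, for the allantoinase gene OsALN (adjusted p = 0.259, limma). Phosphate signalling and transport (19 genes) had a median of 0.00, jasmonate (25 genes) 0.02, defence (24 genes) 0.01, photosynthesis and chlorophyll (17 genes) 0.01, sucrose transport and cleavage (27 genes) 0.00 and heading date genes (13 genes) 0.03.

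The heading date and floral lists held several genes with large parental differences and small differences between the lines. Hd3a, the mobile flowering signal, was lower in Minghui 63 by 3.24 on the log2 scale (difference -3.24 ± 0.25, SE, adjusted p = 0.000138, limma) and differed by -0.28 between the lines (10.11 ± 1.03 above, 10.39 ± 1.01 below, SD, adjusted p = 0.392, limma). OsMADS1 was at 8.20 ± 0.85 above and 8.49 ± 0.83 below (SD, difference -0.29, adjusted p = 0.304, limma). Of the 3 floral organ MADS genes, markers of panicle tissue, OsMADS16 had means of 8.64 above and 8.57 below. OsMADS3 was closer to the array medians, at 5.80 ± 0.51 above and 5.57 ± 0.57 below (SD). The mean over the 3 genes ran from 6.82 to 8.41 in lines above and from 6.83 to 8.32 in lines below. Their part in the results was not tested.

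Leaving out the 81 lines within 0.5 of the midpoint left 79 lines above and 50 below, with OsAPY3 means of 10.42 and 8.08. Of 57257 probe sets 3735 then passed (6.52%, limma), 1636 (2.86%) higher and 2099 (3.67%) lower in lines above, with a median size of 0.12. All 31 were among them, and the 3735 had the same direction in the comparison of all lines. They were spread over the genome, with 7.75% of the probe sets placed on chromosome 12 and 6.04% of those on other chromosomes. Genes are named from the 15 largest differences in each direction among those with a gene name, a rule set after the count was seen.

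The largest of the 15 higher in the lines with high OsAPY3 was LTP of chromosome 12, by 0.69 (adjusted p = 2e-07, limma). OsEXPB3, an expansin that loosens the cell wall, was at 7.73 ± 0.86 above and 7.10 ± 1.01 below (SD, 79 and 50 lines, difference 0.63, adjusted p = 0.0191, limma). PSK2, a precursor of the growth peptide phytosulfokine, was higher by 0.50 (adjusted p = 0.0279, limma). OsCPS and OsKAO, named for enzymes of gibberellin synthesis, were higher by 0.45 (adjusted p = 0.0276, limma) and 0.33 (adjusted p = 0.0311, limma), and the auxin response factor gene OsARF8 by 0.30 (adjusted p = 0.00698, limma). OsABA8ox1, which breaks down abscisic acid, was higher by 0.33 (adjusted p = 0.015, limma). The others were G1L2 (0.43), IAA12 (0.41), the beta-glucosidase genes Os4bglu10 (0.41) and Os8bglu27 (0.36), OsHAL3 (0.39), the potassium transporter gene OsHAK4 (0.37), OsMADS3 (0.35) and XBOS36 (0.31). The means of OsHAL3 (5.08 above and 4.69 below) and OsHAK4 (4.32 and 3.95) were under the array medians in both groups. Over all 210 lines, which include the lines kept here, LTP and IAA12 passed. The other 13 of the 15 differed in the same direction by 0.15 to 0.34 without passing.

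The 15 lower in the lines with high OsAPY3 began with OsMADS1 (8.08 ± 0.89 above and 8.57 ± 0.86 below, SD, difference -0.48, adjusted p = 0.045, limma). The next were OsCIPK14, a kinase that works with calcium sensors (difference -0.39, adjusted p = 0.0424, limma), and the lipid transfer protein gene LTP2-B (difference -0.35, adjusted p = 0.0459, limma), which lie on chromosome 12, 57 and 49 genes from OsAPY3. The LTP2-B probe set is of a kind (_s_at) that can match more than 1 transcript, and it did not pass between the parents (-0.34, adjusted p = 0.778, limma). Over all lines it differed by -0.23 and the other probe sets of the gene by -0.14 and -0.02, without passing. OsCIPK14 and LTP2-B were followed by SAT4 (-0.23), CBF1 (-0.21), PRXIIC (-0.15), OsBURP02 (-0.14), OsGLU12 (-0.13), the tubulin gene RTUB-2 (-0.13), OsCDSP32 (-0.13), ARF13 (-0.12) and ML6 (-0.12). Also among the 15 were DL, a gene of carpel and leaf midrib formation (difference -0.14, adjusted p = 0.00672, limma), OsCHS1, the chalcone synthase of flavonoid synthesis (difference -0.18, adjusted p = 0.0443, limma), and AdoMetDC of polyamine synthesis (difference -0.16, adjusted p = 0.0448, limma). The means of DL (4.84 above and 4.98 below), OsGLU12 (3.26 and 3.39) and ARF13 (4.03 and 4.15) were under the array medians in both groups. DL did not pass between the parents, where it differed by 0.19 (adjusted p = 0.591, limma). OsMADS3, a stamen and carpel identity gene, was higher in the lines with high OsAPY3 by 0.35 (adjusted p = 0.02, limma), while OsMADS16 did not pass (0.11, adjusted p = 0.145, limma). Of the list genes 9 rose and 2 fell in this comparison, which is 7.59% of those measured, against 6.52% of all probe sets. The 9 were OsALN, OsGH3-5, which conjugates jasmonate or auxin to amino acids, OsNH2, OsrbohB and RLK10 of the defence list, OsSUS2, the heading date genes Ehd3 and OsMADS56, and OsMADS3, and the 2 that fell were OsSWEET5 and OsMADS1.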

How the data were processed

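The authors processed the array files with RMA in the affy package and deposited log2 expression values for 57381 probe sets. Software versions were not given in the sources used here, and the deposited values were used without further normalization. The 57258 probe sets that are not controls were fitted with limma 3.58.1 (lmFit and eBayes with trend) in R 4.3.3, and 57257 were tested between lines, without that of OsAPY3. P-values were adjusted by Benjamini-Hochberg over all of them. Gene symbols came from the platform annotation (22436 probe sets with 1 symbol, 95 with several, 34727 unnamed here), brought up to date with RefSeq's ASM3414082v1 gene table, which also gave the order of genes and 22202 placed probe sets. Its coordinates are not printed. Named genes were the 10 largest called differences in each direction with a symbol or description (4 were lower), list members, and genes within 25 of OsAPY3. The gene list used the probe set with the highest mean. Members and lists were chosen with earlier results of these data known. Tests were checked on simulated data. The number of arrays limits the precision, and probe sequences were not used. The replicate numbers of the parents do not pair them.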

Additional observations from a re-analysis of the deposited data

Results flagged for a closer look

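For 5 of the probe sets called between lines above and below the OsAPY3 midpoint, the contrast of the lines differed from the contrast of the parents by the limma test of that difference. The contrast of the lines minus that of the parents was -1.67 ± 0.45 (SE) for LOC4340389 (adjusted p = 0.00799), -1.04 ± 0.33 for IAA12 (adjusted p = 0.034), 1.51 ± 0.49 for LOC4342703 (adjusted p = 0.0365), -1.41 ± 0.48 for 1 probe set with no gene name (adjusted p = 0.0478) and -0.42 ± 0.14 for LOC4349023 (adjusted p = 0.0487). The share over all probe sets that passed this test was 7.55%. The lines were grouped on OsAPY3 alone, and both groups mix the genomes of the parents. A smaller difference between the lines than between the parents was therefore likely in advance.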

How the results depend on the processing

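The count of 31 probe sets between lines above and below the midpoint was 19 with the first 5 principal components as covariates and 3735 with the lines within 0.5 of the midpoint left out. With 1 parental array left out of the midpoint it ranged from 31 to 550. With choices made after seeing the data, 7218 passed for the OsAPY3 level as a continuous variable in place of the groups. The count was 55 for the groups with the level of LOC4351373 as a covariate. It stayed within 1.5 times of 31 under the other 7 settings, which were no variance trend (31), no dim probe sets (34), quantile normalization (25), blocks of 10 lines (28), the median of the lines as the cut (45), a rank-sum test (24) and removal of line 98 (38). The cause of these changes was not tested. No called probe set changed direction under any setting run, and 11 of the 31 passed under all 14 settings other than the 3 chosen after seeing the data, 7 of them on chromosome 12. The parental count of 3043 ranged from 1545 to 3417 with 1 array left out, was 2309 with the replicate number as a block, and was 3129 without the trend, 2526 without dim probe sets and 3016 after quantile normalization. Same-numbered parental arrays did not deviate together (correlations of -0.202, -0.26 and -0.0706).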
